A study of Mus musculus with 3 samples.

Results

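Histone lysine methyltransferases and demethylases write and erase methyl marks on histone tails. The genes described here were chosen by symbol, as Kdm, Kmt, Setd, Setdb, Suv39h, Ezh, Ehmt, Nsd, Smyd and Prdm genes with Dot1l, Ash1l and Phf8. Of 18193 genes with a probe set of 1 symbol on the array, 65 matched, with 169 probe sets, and 50 of the 65 passed the filter on low signal described below. The group was proposed with ratios from these same arrays known, so its counts and medians are descriptions and support nothing by themselves. The symbols also caught Nsdhl, a sterol synthesis enzyme, Prdm16os, a noncoding antisense transcript, and Ezhip, an inhibitor of EZH2, which are not such enzymes. Nsdhl was the 1 of these 3 that passed.

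RNA came from B16 cells, a mouse melanoma line, collected at 0, 2 and 4 h of exposure to 1 µg/ml doxorubicin. Doxorubicin, an anthracycline used against tumours, slots between DNA bases and traps topoisomerase II on broken DNA. Each time point was 1 Affymetrix Mouse430_2 array, so no difference could be set against a spread between cultures, no test was made, and the number of arrays limits precision. No untreated culture was sampled at the later times, so drug and time in culture cannot be told apart. The labels do not say whether the cells were one clone.

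Methyl groups on H3K4 and H3K36 are found at active promoters and gene bodies, those on H3K9 and H3K27 at silenced chromatin, and those on H4K20 at condensed chromatin. SET domain enzymes add them, DOT1L adds them to H3K79 without a SET domain, and LSD1 and the JmjC proteins remove them. Most H3K4 methyltransferases work inside shared COMPASS complexes, and EZH1 and EZH2 work inside Polycomb repressive complex PRC2. SETDB1 and EZH2 have been studied in melanoma as genes that promote tumour growth.

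A signal is the intensity of a probe set after each array was scaled to a 2% trimmed mean of 500. Signals under a floor of 100 were set to 100, and a probe set passed the filter where its log2 signal, averaged over the 3 arrays, reached that of 200. The passing probe set with the highest mean stood for its gene. The median signal over all 45101 probe sets was 154, 136 and 126 at 0, 2 and 4 h. The arrays ran on fluidics modules 3, 4 and 1, so module and time cannot be told apart. All 10 pigment cell markers read reached 200 at 0 h, and 9 did on each later array. Tyrp1 (42568, 44083 and 47128) and Pmel (35665, 46371 and 45805) were no lower, while the pigment regulators Sox10 (11710, 2640 and 892), Mitf (6576, 2031 and 739) and Mc1r (3976, 2200 and 1196) were lower on each later array. The description label names bone marrow-derived macrophages in place of melanoma cells, and a treatment abbreviated ET, left unexpanded. Of 9 macrophage markers, 5, 4 and 4 reached 200. Csf1r (522, 424 and 376), Lyz2 (372, 414 and 398) and Cd68 (1884, 3044 and 3699) did so on every array. Adgre1 (302, 197 and 301) did so at 0 and 4 h, and Cd14 (215, 268 and 151) at 0 and 2 h. Itgam (19.8, 63.0 and 38.8) and Ptprc (66.8, 49.5 and 55.7) were under 100 on every array. The summed signal of the macrophage markers was 3770, 4718 and 5210, with Cd68 the brightest of them. The part of this summed signal in the values below was not tested. Less RNA per cell and fewer cells of a kind cannot be told apart in such bulk samples.

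Over the 50 passing members, 10 were lower by at least 2-fold at 2 h and 14 at 4 h, and 4 and 5 of the 8 H3K4 methyltransferases were among them. The shares were 20% and 28%, against 5.69% and 14.4% of all 9723 genes that passed. Setd6 was the 1 member at least 2-fold higher at 2 h (1.41% of all genes) and no member was at 4 h (2.32% of all genes). Without replicates these counts have no test, and both comparisons share the 0 h array. The median log2 ratio was -0.37 at 2 h and -0.69 at 4 h, against -0.01 and -0.07 for all genes, and 39 members lay below the median of all genes at 4 h. The count depends on how arrays are scaled, because the median of all genes moved by 0.30 at 4 h with equal medians and by -0.32 with scaling to spike-ins. With equal medians 4 members were lower at 2 h and 9 at 4 h (3.81% and 9% of all genes). With spike-in scaling 14 and 25 were lower (9.42% and 22.7% of all genes). With quantile normalization 6 and 9 were lower (4.12% and 10.2% of all genes). The members' median minus that of all genes was -0.62 at 4 h in the main scaling and -0.52 with quantile normalization. The other scalings multiply a whole array by 1 factor and so hardly touch this difference.

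**Figure D1:**
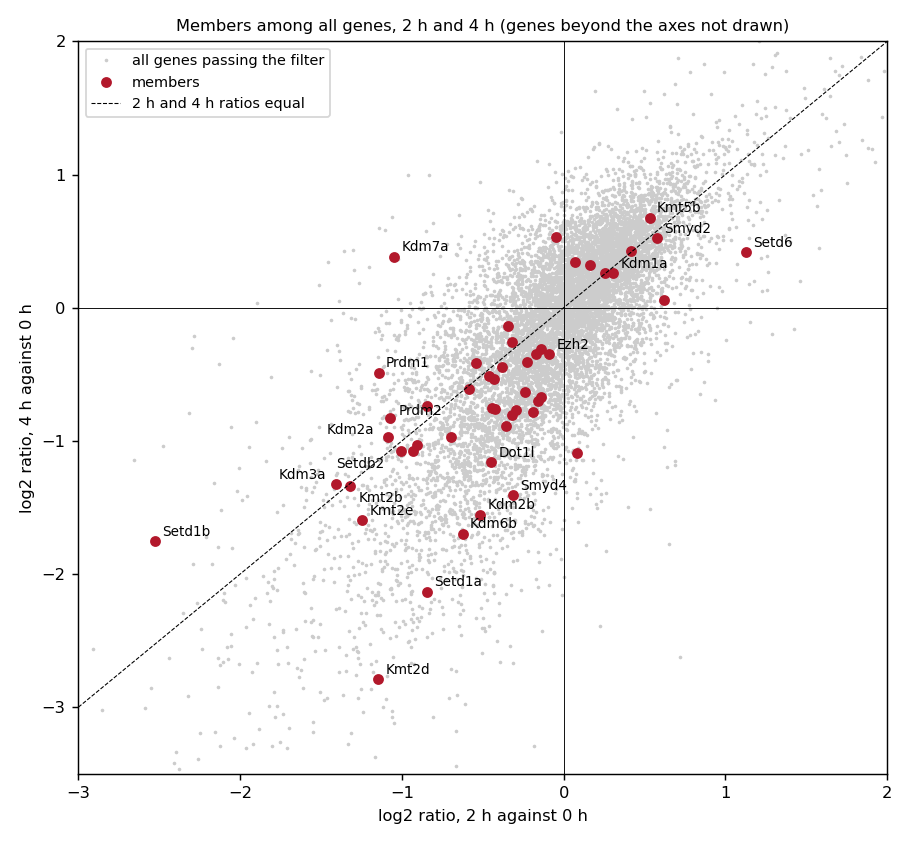
Log2 ratio at 2 h (x axis) and 4 h (y axis), each against the same 0 h array, for the 50 passing members (red) among all 9723 passing genes (grey), with the dashed line where both ratios are equal. Kmt2d and Setd1a lie lowest at 4 h, Setd1b lies furthest left, and 39 members are below 0 at 4 h (53.9% of all genes are). The shared 0 h array ties both axes together.

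An error between probe sets is the 1 kind of error these arrays give. The SD of log2 ratios between passing probe sets of the same gene, pooled over 3905 genes, was 0.40 at 2 h and 0.48 at 4 h. It was 0.64 at 4 h in the dimmest of 4 equal bins of probe sets and 0.31 in the brightest, so ratios of bright members are better determined. This error leaves out variation between cultures and arrays. Below, a ratio is that of the probe set standing for the gene. The SD after ± is taken over all passing probe sets of the gene, about their own mean. Of the 50 members, 27 had 1 passing probe set and so no error of their own. In Kdm5b, just inside 2-fold at 4 h, the log2 ratio was -1.03, and in Kdm6a and Kdm2a, just outside, it was -0.97.

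All 8 H3K4 methyltransferases passed, and 5 of them were at least 2-fold lower at 4 h (14.4% of all genes), 4 of them already at 2 h (5.69%). Kmt2d, the catalytic subunit of a complex that marks enhancers, had signals of 964, 435 and 139 at 0, 2 and 4 h. It was 2.22-fold lower at 2 h and 6.92-fold lower at 4 h (log2 ratio -2.79), the lowest of the 50 members. Setd1a, a catalytic subunit of a promoter COMPASS complex, had signals of 860, 479 and 196 and stood at -0.85 and -2.13 on the log2 ratio scale. Both genes stepped down on each array in turn.

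Setd1b, the close relative of Setd1a, had signals of 575, 82.4 and 171. The 2 h signal was under the floor, which makes Setd1b at least 5.75-fold lower there, and its 4 h signal was 3.37-fold lower (log2 ratio -1.75). A dimmer probe set of Setd1b that did not pass had signals of 268, 170 and 121, without the low point at 2 h. Setd1b was thus low at both times, but the depth of the 2 h low rests on 1 probe set. Kmt2b, a subunit of a complex at promoters, had signals of 1055, 422 and 418, 2.50-fold lower at 2 h and 2.52-fold lower at 4 h. Kmt2e, a relative with little or no enzyme activity of its own, was counted in this family by name. It had signals of 598, 252 and 198 and a 4 h log2 ratio of -1.59 ± 0.57 (SD, n = 2 probe sets).

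The remaining H3K4 enzymes differed less from 0 h. Kmt2a, the MLL gene that is rearranged in leukaemia, had signals of 570, 458 and 477, with a log2 ratio of -0.26 at 4 h that turned to 0.04 with equal medians and 0.07 with quantile normalization. A second Kmt2a probe set, which did not pass, had signals of 232, 147 and 99.1. Kmt2c, the relative of Kmt2d, had signals of 336, 244 and 235 and a 4 h log2 ratio of -0.51 ± 0.60 (SD, n = 2 probe sets). Its probe sets differed in sign, so Kmt2c has no clear direction here. Setd7, which also methylates proteins other than histones, had signals of 1706, 1134 and 1118 and a 4 h log2 ratio of -0.61 ± 0.59 (SD, n = 2 probe sets). Its second passing probe set read 304, 236 and 355, with a 4 h ratio of 0.22, so Setd7 has no clear direction at 4 h. The 5 H3K4 genes at least 2-fold lower at 4 h were so in all 4 scalings tried, but Setd1b passed the filter only through its 0 h signal, the 1 array where it reached 200.

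**Figure D2:**
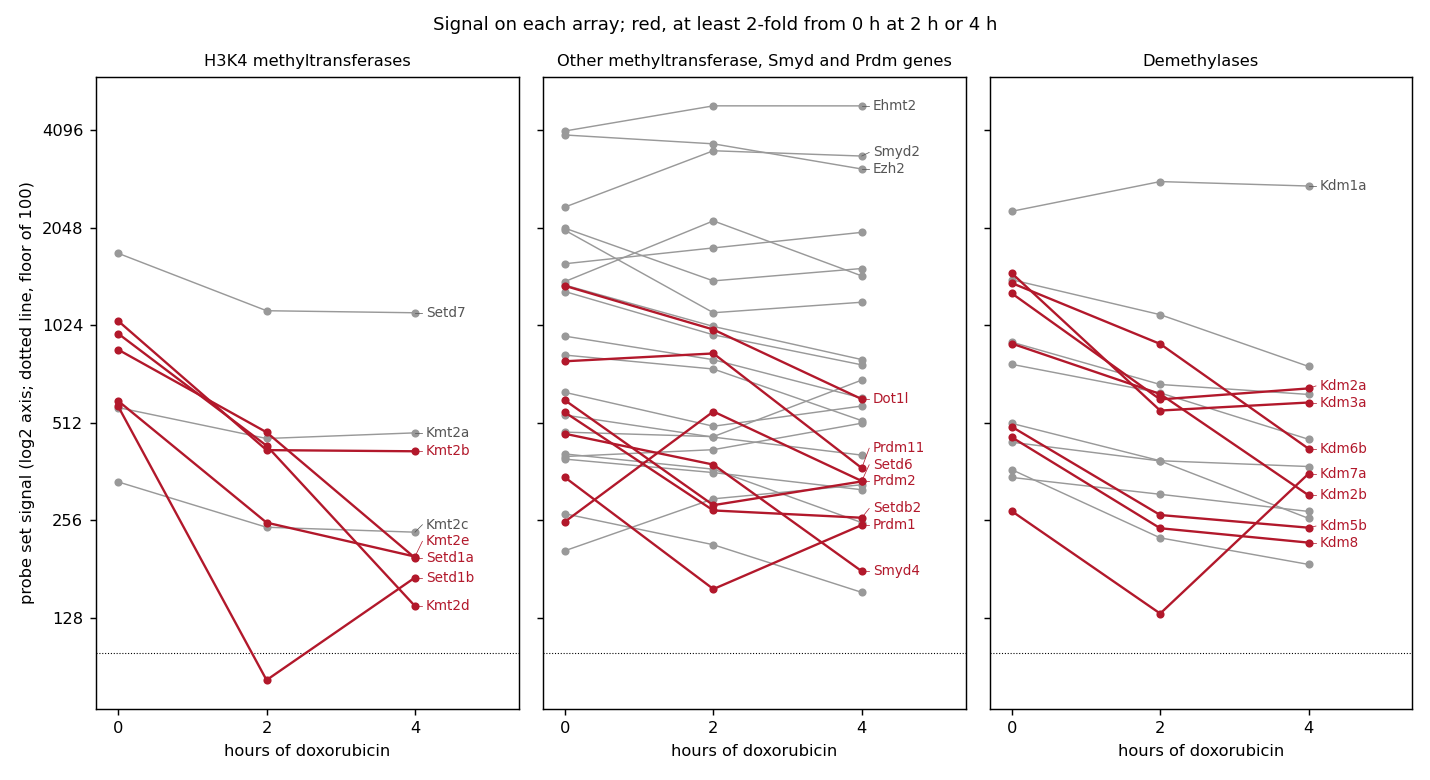
Probe set signal on a log2 axis (y) at 0, 2 and 4 h (x), 1 line per passing member and 1 array per point, with Nsdhl left out. Red lines are members at least 2-fold from 0 h at either later time. The left panel holds the 8 H3K4 methyltransferases, all below their 0 h signal at 4 h on the probe set drawn. Other passing probe sets of Kmt2c and Setd7, not drawn, were above it. The brightest lines of the other panels (Ehmt2, Ezh2, Smyd2, Kdm1a) stay within 1.49-fold of their 0 h signal.

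To show what kind of promoter these genes have, the 250 bases before the RefSeq start are printed for the pair of H3K4 methyltransferases lowest at 4 h and for a demethylase and a methyltransferase that were not lower (Kdm1a and Smyd2, below). CXXC domains of KMT2A, KMT2B, KDM2A, KDM2B and the COMPASS partner CXXC1 bind unmethylated CpG, so each CpG is in capitals. Sequences run 5′ to 3′ on the gene's strand, from RefSeq, build GRCm38.p6.
Kmt2d (chr15:98871206-98871455, strand -): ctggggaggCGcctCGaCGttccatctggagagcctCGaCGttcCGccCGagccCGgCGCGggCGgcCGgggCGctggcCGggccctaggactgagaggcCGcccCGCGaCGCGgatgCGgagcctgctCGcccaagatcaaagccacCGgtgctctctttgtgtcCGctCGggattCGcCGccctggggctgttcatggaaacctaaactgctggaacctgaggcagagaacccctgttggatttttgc
Setd1a (chr7:127777139-127777388, strand +): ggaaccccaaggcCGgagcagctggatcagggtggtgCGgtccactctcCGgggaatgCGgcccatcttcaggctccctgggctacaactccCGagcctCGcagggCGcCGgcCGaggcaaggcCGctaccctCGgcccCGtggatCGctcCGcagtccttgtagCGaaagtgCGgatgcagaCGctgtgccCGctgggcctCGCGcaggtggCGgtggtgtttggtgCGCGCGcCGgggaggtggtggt
Kdm1a (chr4:136602724-136602973, strand -): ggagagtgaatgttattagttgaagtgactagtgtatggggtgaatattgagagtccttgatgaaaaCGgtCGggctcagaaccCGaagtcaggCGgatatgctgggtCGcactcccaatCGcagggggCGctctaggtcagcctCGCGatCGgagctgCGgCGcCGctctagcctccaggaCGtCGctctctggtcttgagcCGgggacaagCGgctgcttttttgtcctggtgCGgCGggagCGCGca
Smyd2 (chr1:189922292-189922541, strand -): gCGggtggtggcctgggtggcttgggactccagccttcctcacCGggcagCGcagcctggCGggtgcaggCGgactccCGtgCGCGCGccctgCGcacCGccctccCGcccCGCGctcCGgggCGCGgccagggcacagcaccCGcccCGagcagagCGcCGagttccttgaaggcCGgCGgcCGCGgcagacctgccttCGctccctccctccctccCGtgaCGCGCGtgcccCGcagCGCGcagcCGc
The windows of Kmt2d and Setd1a hold 26 and 25 CpG, and those of Kdm1a and Smyd2 hold 21 and 34. All 4 are rich in CpG, since the median over 32851 promoter windows of this length was 6 and 16.3% held at least 21. At least 1 CpG was found in 92.1% of windows. A window was given for 37 of the 50 members (74%), under the 80% needed, so a comparison of promoters over the group is void.

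The H3K9 methyltransferases split. Ehmt2, also called G9a, had signals of 4065, 4860 and 4859, and its partner Ehmt1, also called GLP, had signals of 2009, 1118 and 1205. Their 4 h log2 ratios were 0.26 ± 0.09 (SD, n = 2 probe sets) for Ehmt2, which was -0.06 with spike-in scaling, and -0.74 for Ehmt1. The proteins form a heterodimer, and their transcripts lay on either side of 0 in this scaling. Setdb1, which silences retroelements, had signals of 1300, 956 and 773 and a 4 h log2 ratio of -0.75 ± 0.34 (SD, n = 2 probe sets). Its relative Setdb2 had signals of 551, 275 and 261 and was 2.01-fold lower at 2 h and 2.11-fold lower at 4 h. In all, 1 of 4 passing H3K9 genes was at least 2-fold lower at each time (5.69% of all genes at 2 h and 14.4% at 4 h). Suv39h2, an enzyme of constitutive heterochromatin, did not pass.

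Neither H3K27 methyltransferase gene was 2-fold different at either time. Ezh2, the main PRC2 enzyme of dividing cells, had signals of 3952, 3711 and 3103 and a 4 h log2 ratio of -0.35, which was -0.67 with spike-in scaling. Ezh1 had signals of 396, 359 and 318 and a 4 h ratio of -0.31 ± 0.25 (SD, n = 2 probe sets), which was 0.02 with quantile normalization and -0.64 with spike-in scaling. Its second passing probe set read 362, 383 and 228, 1.58-fold lower at 4 h.

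Among H3K36 methyltransferases the gene with the largest decrease failed the filter. Setd2, the enzyme of H3K36 trimethylation that travels with RNA polymerase II, had signals of 491, 130 and 22.7 on its 1 probe set. Its mean signal of 186 lay under the filter because of its low 2 h and 4 h signals, so it is in none of the counts above. It was 3.78-fold lower at 2 h and, with the 4 h signal under the floor, at least 4.91-fold lower at 4 h. The filter therefore removes genes that became dim.

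The dimethylating NSD genes lay close together, with 4 h log2 ratios of -0.81 for Nsd1, -0.76 for Nsd2 and -0.70 for Nsd3. Nsd2 had 5 passing probe sets, and the brightest read 1361, 1015 and 802. A second Nsd2 probe set read 777, 475 and 88.7, at least 7.77-fold lower with its 4 h signal under the floor, while the dimmer 3 had log2 ratios from -0.63 to -0.04. The spread over these probe sets was 1.15 (SD, n = 5 probe sets), wider than the ratio itself. One probe set of Nsd3 read 592, 200 and 246, with a log2 ratio of -1.27, while the other passing probe sets lay from -0.70 to -0.10.

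Dot1l, the H3K79 methyltransferase linked to transcribing polymerase, had signals of 1354, 993 and 606. Its log2 ratio stood at -0.45 ± 0.03 at 2 h and at -1.16 ± 1.00 at 4 h (SD, n = 2 probe sets). The other probe set read 1142, 858 and 192, with a 4 h ratio of -2.57. Thus both Dot1l probe sets passed 2-fold at 4 h and neither did at 2 h, but with equal medians the brighter one was at -0.86.

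No H4K20 gene was 2-fold different, and no direction can be given for them as a group. Kmt5a, which adds the first methyl group at mitosis, had signals of 1584, 1772 and 1979 and a 4 h log2 ratio of 0.32 ± 0.40 (SD, n = 2 probe sets). The other passing Kmt5a probe set was at -0.24 at 4 h, so its direction is not clear. Kmt5c, an enzyme of H4K20 trimethylation, had signals of 541, 462 and 407, with a ratio of -0.41. Kmt5b, its relative, had the highest 4 h ratio of the 50 members, 0.68, from signals of 206, 298 and 330. Kmt5b probe sets that did not pass went the other way, at 335, 44.1 and 176, at 249, 102 and 119, and at 242, 164 and 197, so the gene has no clear direction.

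Smyd genes encode SET enzymes with a MYND zinc finger, several of which act on proteins other than histones. Smyd4 had signals of 474, 380 and 178 and was 2.65-fold lower at 4 h, after a log2 ratio of -0.32 at 2 h. Smyd2, a lysine methyltransferase of p53 and other proteins, stood highest of the 5, at 2369, 3533 and 3403 and a 4 h log2 ratio of 0.52, which kept its sign in all 4 scalings. Smyd5 read 1396, 2147 and 1453, and its ratios at 2 h and 4 h were 0.62 ± 0.24 and 0.06 ± 0.19 (SD, n = 2 probe sets). The family therefore held members on both sides of 0, with 1 of 5 at least 2-fold lower at 4 h (14.4% of all genes).

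Other Setd genes included the 1 member at least 2-fold higher. Setd6, which methylates the NF-kB subunit RELA, had signals of 254, 555 and 339, 2.19-fold higher at 2 h and 1.33-fold higher at 4 h. Its second passing probe set, at 268, 436 and 340, was 0.70 higher on the log2 scale at 2 h. Averaging both left no member 2-fold higher at 2 h, as did spike-in scaling. Setd3, an actin histidine methyltransferase, had signals of 2039, 1402 and 1531 and a 4 h ratio of -0.41.

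Setd5, a gene of chromatin regulation with disputed enzyme activity, showed the widest disagreement between probe sets. The probe set standing for it read 479, 464 and 693, with a 4 h log2 ratio of 0.53, while the others read 653, 477 and 110 (-2.56) and 298, 226 and 142 (-1.07). No direction can be given for Setd5.

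Prdm genes encode zinc finger transcription factors with a PR domain, and only some have shown methyltransferase activity. Of 11 on the array, 5 passed, all below 0 at 4 h (53.9% of all genes) and 1 at least 2-fold lower (14.4% of all genes). Prdm11 had signals of 792, 838 and 371 and was 2.13-fold lower at 4 h. Prdm1, also called Blimp-1, a repressor in lymphocyte and germ cell differentiation, had signals of 347, 157 and 248. It was 2.21-fold lower at 2 h, with a log2 ratio of -0.49 at 4 h. Prdm2, also called RIZ, gave 601, 285 and 338, with 2 h and 4 h log2 ratios of -1.07 ± 0.17 and -0.83 ± 0.24 (SD, n = 2 probe sets). The brightest probe set of Prdm16, a regulator of brown fat and stem cells, had a 4 h ratio of -0.63, but its other 3 lay from -1.43 to -1.15.

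**Figure D3:**
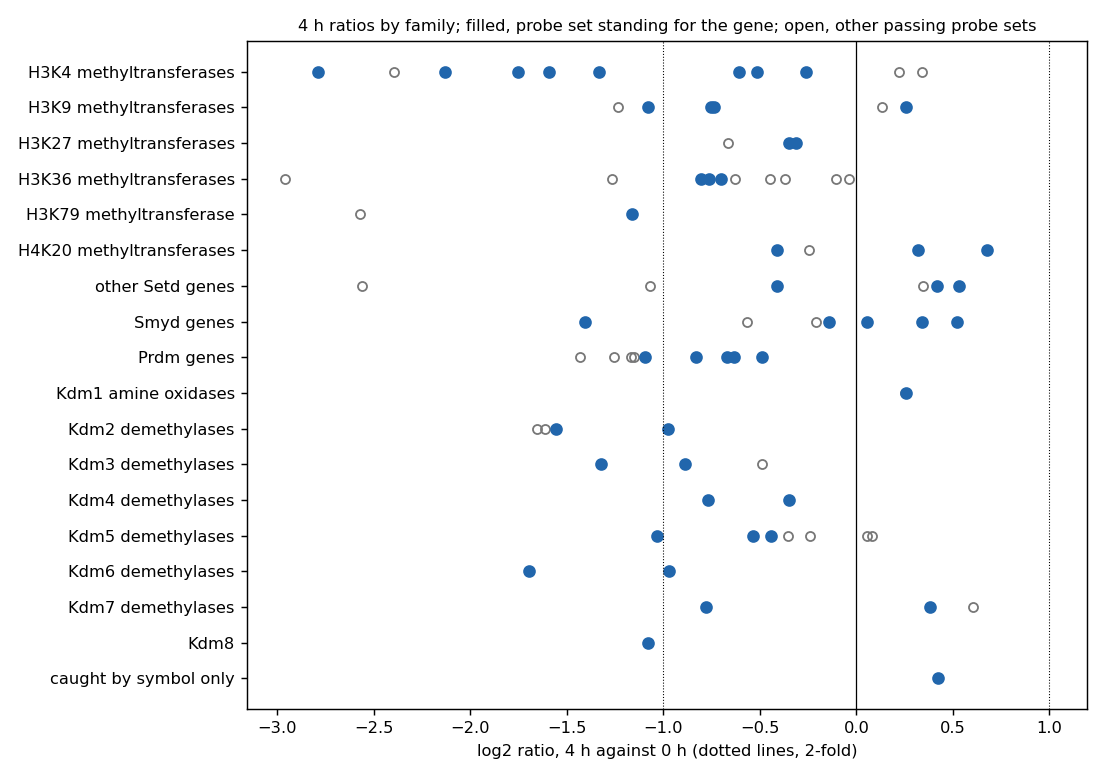
Log2 ratio at 4 h against 0 h (x axis) for each family (y axis), with a filled circle for the probe set that stands for a gene and an open circle for its other passing probe sets, and dotted lines at 2-fold. The filled circle furthest left, Kmt2d at -2.79, is in the H3K4 row, and an open circle of Nsd2 lies further left at -2.96. The H3K9, H4K20, Smyd, other Setd and Kdm7 rows hold filled circles on both sides of 0.

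Among demethylases, 15 passed of 19 on the array, and the LSD1 gene stood apart in sign from nearly all JmjC genes. Kdm1a, which encodes the amine oxidase LSD1 that acts on H3K4, had signals of 2298, 2838 and 2750. Its log2 ratios were 0.30 ± 0.05 at 2 h and 0.26 ± 0.01 at 4 h (SD, n = 2 probe sets), the latter -0.06 with spike-in scaling. Kdm1a had a mean signal of 2618, and the brightest JmjC gene, Kdm3b, had 1060. All genes with a mean signal of at least 1600 had medians of 0.18 at 2 h and 0.27 at 4 h, near the ratios of Kdm1a. The part of signal in this contrast was not tested. Of the 14 passing JmjC genes, 13 were below 0 at 4 h (53.9% of all genes), and 5 of them by at least 2-fold (14.4%). The median of the 14 was -0.93 at 4 h. Of the 13, Kdm5c and Phf8 had passing probe sets of both signs at 4 h. All 14 were below 0 at 2 h in the main setting (51.0% of all genes), on the probe set standing for the gene. Kdm3b, Kdm5c and Phf8 had passing probe sets of both signs at 2 h. Of the 14, Kdm4b was at 0.01 with quantile normalization, and Phf8 was above 0 as a mean over probe sets.

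Kdm6b, also called JMJD3, an H3K27 demethylase that is an early response gene in several cell types, had signals of 1381, 896 and 426. It was 3.24-fold lower at 4 h (log2 ratio -1.70), the lowest of the demethylases. A second Kdm6b probe set, which did not pass, read 376, 95.0 and 62.2. Kdm6a, also called UTX, its X-linked relative, read 367, 226 and 187, with ratios of -0.70 and -0.97. Kdm6a and Kdm6b were thus both below 0 h on each later array.

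Kdm2b, a CXXC protein that brings a Polycomb complex to CpG islands, gave 899, 628 and 306, with 2 h and 4 h log2 ratios of -0.52 ± 0.17 and -1.55 ± 0.07 (SD, n = 2 probe sets). Its relative Kdm2a gave signals of 1283, 604 and 653, with ratios of -1.09 ± 0.61 and -0.97 ± 0.45 (SD, n = 2 probe sets). Kdm3a, an H3K9 demethylase that hypoxia induces in many cells, had signals of 1481, 558 and 591, 2.65-fold and 2.50-fold lower. Kdm2a and Kdm3a had come down by 2 h and were no lower at 4 h, whereas Kdm2b and Kdm6b were lowest at 4 h. Kdm3b read 1414, 1103 and 764, with a 4 h ratio of -0.89 ± 0.28 (SD, n = 2 probe sets).

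Kdm5b, an H3K4 demethylase studied in slow-cycling melanoma cells, had signals of 498, 266 and 243 and was 1.87-fold lower at 2 h and 2.05-fold lower at 4 h. Its relatives Kdm5c and Kdm5a lay at -0.54 ± 0.29 (SD, n = 4 probe sets) and -0.44 ± 0.06 (SD, n = 2 probe sets) at 4 h. The passing probe sets of Kdm5c differed in sign, from -0.54 to 0.08. Kdm8, a JmjC protein also called JMJD5, had signals of 462, 242 and 219 and was 2.11-fold lower at 4 h. None of Kdm5b, Kdm8, Setdb2, Dot1l and Prdm11 was 2-fold lower at 4 h with equal medians or quantile normalization. In the Kdm4 genes, Kdm4a was at -0.77 and Kdm4b at -0.35 at 4 h, and neither was 2-fold different.

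Kdm7a, which acts on H3K9 and H3K27, was low at 2 h and not at 4 h. Its signals were 273, 132 and 357, with a log2 ratio of -1.05 at 2 h and 0.38 at 4 h. It was the 1 member at least 2-fold higher at 4 h than at 2 h (0.843% of all genes). Other Kdm7a probe sets, which did not pass, read 172, 151 and 209, and 92.0, 151 and 250, without the 2 h low. Phf8, its relative on H3K9 and H4K20, had a 4 h ratio of -0.78 ± 0.98 (SD, n = 2 probe sets), with probe sets of opposite sign.

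Of the 18 members at least 2-fold lower at either time, 6 were so at both (12%, against 4.39% of all genes), 4 at 2 h alone (8%, against 1.3%) and 8 at 4 h alone (16%, against 9.97%). The 6 were Kmt2b, Kmt2d, Kmt2e, Setd1b, Setdb2 and Kdm3a. Between 2 h and 4 h, 6 members were at least 2-fold lower, namely Kmt2d, Setd1a, Prdm11, Smyd4, Kdm6b and Kdm2b (12%, against 5.41% of all genes). At 4 h, 9 members were at least 2-fold lower in all 4 scalings (18%, against 8.97% of all genes): Kmt2b, Kmt2d, Kmt2e, Setd1a, Setd1b, Kdm2b, Kdm3a, Kdm6b and Smyd4. At 2 h there were 4 such members (8%, against 3.64% of all genes), which were Kmt2b, Kmt2e, Setd1b and Kdm3a.

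Probe sets of a gene often differed. Of 23 members with more than 1 passing probe set, the probe sets shared a sign in 16 at 4 h and in 15 at 2 h. Over single probe sets, 27 of 83 passed 2-fold on the lower side at 4 h (32.5%, against 13.9% of all 15785 passing probe sets) and 13 at 2 h (15.7%, against 5.68%). None was 2-fold higher at 4 h (2.74% of all) and 1 was at 2 h (1.2%, against 1.66%). Between 2 h and 4 h, 13 were lower (15.7%, against 5.6%) and 2 higher (2.41%, against 1.02%). At 4 h, 21 members had at least 1 passing probe set that was 2-fold lower (42%, against 18% of all genes), and 7 of these are not among the 14: Kdm2a, Nsd2, Nsd3, Prdm2, Prdm16, Setd5 and Setdb1. Genes with more probe sets have more chances to be counted in this way.

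**Figure D4:**
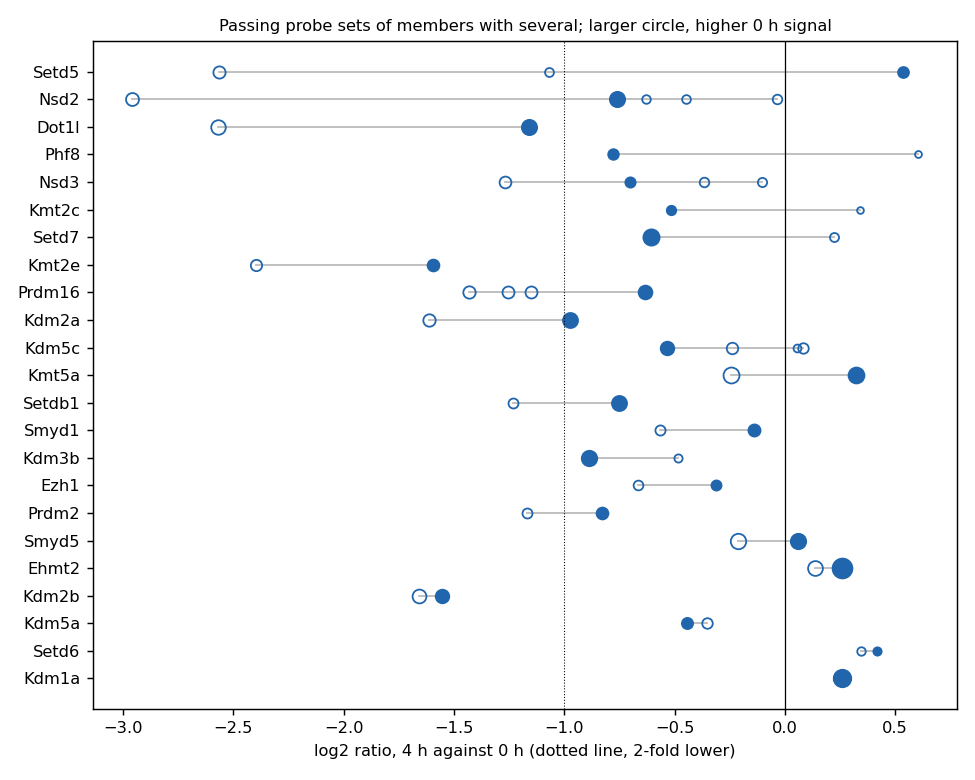
Log2 ratio at 4 h against 0 h (x axis) of every passing probe set of the 23 members that have several (y axis), filled where the probe set stands for the gene, with larger circles for a higher 0 h signal. Setd5, Nsd2 and Dot1l have the widest ranges and Kdm1a the narrowest, with both of its circles at about 0.25.

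Members were also set beside genes of like signal. Of the 7 members with a mean signal of at least 1600, none was at least 2-fold lower at 4 h (3.52% of all genes that bright) and their median was 0.26, near the 0.27 of all such genes. From 800 to 1600, 2 of 8 were (11.2% of all such genes), with a median of -0.76 against -0.07. From 400 to 800, 5 of 16 were (20.3%), and from 200 to 400, 7 of 19 (21.7%). A lower signal at 2 h or 4 h itself lowers the mean, so bins by the 0 h signal were added, a choice made after seeing the data. Then none of 7 members at 1600 or above was lower (9.56% of all such genes), with a median of -0.35 against 0.17. From 800 to 1600, 7 of 17 were (20% of all such genes), from 400 to 800, 7 of 17 (22%), and under 400, 0 of 9 (6.23%). Across the 50 members, the rank correlation of mean signal with the 4 h log2 ratio was 0.23, against 0.32 over all genes, and all points come from the same arrays. Members were longer genes, with a median genomic span of 54.8 kb against 23.3 kb for all genes. The 14 members at least 2-fold lower at 4 h had a median span of 41.4 kb and the other members 67.6 kb. The rank correlation of span with the 4 h ratio was -0.01 over the 50 members and -0.09 over all genes.

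Besides Setd2, 14 members did not pass. They were Kdm1b, Kdm4c, Kdm4d, Kdm5d, Prdm6, Prdm8, Prdm9, Prdm10, Prdm14, Prdm15, Setd4, Suv39h2, Ezhip and Prdm16os. None of their probe sets had a signal above 217 on any array, so no ratio is given for them.

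Partner subunits and relatives that the symbols did not match were read from a list of 64 genes, of which 63 were on the array and 59 passed. At 4 h, 14 of the 59 passed 2-fold on the lower side (14.4% of all genes did) and none on the higher, with a median of -0.51. Of 12 COMPASS and MLL partners, 5 passed 2-fold on the lower side at 4 h and none at 2 h. Ncoa6, a coactivator in the KMT2C and KMT2D complexes, was lowest, at 943, 478 and 181 (log2 ratio -2.38), followed by Wdr82, a subunit of SETD1 complexes, at 3318, 2439 and 1067 (-1.64). The core subunit Ash2l read 1754, 2274 and 2376 (0.44) and the chromatin reader Psip1 826, 750 and 1340 (0.70 ± 0.36, SD, n = 2 probe sets). So members of the same complexes lay on both sides of 0.

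Of 10 PRC2 partners, 2 were at least 2-fold lower at 4 h (14.4% of all genes). They were the accessory subunits Jarid2, at 896, 407 and 181 (-2.31 ± 0.47, SD, n = 2 probe sets), and Aebp2, at 2075, 1367 and 790 (-1.39 ± 0.77, SD, n = 3 probe sets). The histone chaperones Rbbp7 and Rbbp4 were the highest, at 0.47 and 0.52. Of 6 passing JmjC genes outside the symbol rule, 4 were at least 2-fold lower at 4 h (14.4% of all genes). Jmjd1c, a relative of Kdm3a, read 695, 231 and 256 (-1.44), and Jmjd6 read 1981, 1405 and 731 (-1.44 ± 0.72, SD, n = 2 probe sets). Phf2 lay at -0.67 and Riox2, a ribosomal oxygenase, at 0.30.

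In each of the other lists at most 1 gene passed 2-fold at 4 h, where 14.4% of all genes were at least 2-fold lower. Among 9 H3K9 and HP1 partners 1 was at least 2-fold lower at 4 h, the SETDB1 cofactor Atf7ip, at 706, 349 and 134 (-2.40 ± 0.85, SD, n = 2 probe sets). Zfp644 was at -0.98, and the HP1 genes Cbx5 and Cbx1 at -0.04 and 0.11. Of 8 LSD1 partners 1 was lower, Gse1 at -1.91, with Rcor2 at -0.65 and the deacetylases Hdac1 and Hdac2 at 0.36 and 0.44. Of 6 DOT1L and AF9 partners none was, with Mllt1 at -0.92, Mllt10 at -0.89, Mllt3 at -0.17 and Aff1 at 0.05. Of 8 arginine methyltransferases 1 was, Prmt6, at least 3.78-fold lower with its 4 h signal under the floor. Prmt9 was at -0.70, and Prmt1 and Prmt7 at 0.21 and 0.50.

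**Figure D5:**
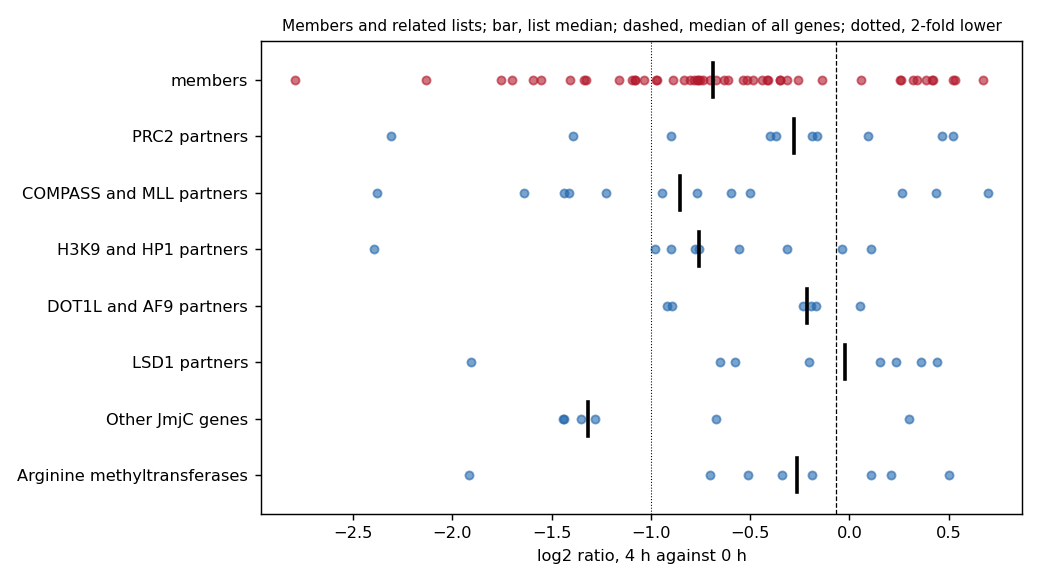
Log2 ratio at 4 h against 0 h (x axis) of the 50 members and of the passing genes of each related list (y axis), 1 circle per gene, with a bar at each list's median. The dashed line is the median of all genes, -0.07, and the dotted line marks 2-fold lower. The other JmjC genes have the lowest median, -1.32, and the LSD1 partners the highest, -0.02.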

How the data were processed

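RNA from 3 samples, 1 per time point, was measured on Mouse430_2 arrays. The authors deposited linear intensities per probe set that they had scaled, as the 2% trimmed mean of each array is 150. The submitters' processing notes name GCOS 1.4. Probe summary method: not given in the sources used here. Titles gave each array its time.

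Intensities were rescaled to a trimmed mean of 500, floored at 100, put on the log2 scale and filtered at a mean signal of 200. Platform annotation gave 1 symbol to 34945 probe sets other than controls, and 34741 of these were updated by Entrez gene ID to RefSeq (GRCm38.p6). Another 932 carried several symbols and 9160 were not listed, and neither kind was named. The number after ± is the SD over a gene's passing probe sets, taken about their mean. The ratio before it is that of the probe set standing for the gene, not that mean. A signal under 100 on 1 side gives a bound ("at least").

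The members, families and lists were chosen with earlier results of these data known. Named genes were members at least 2-fold different at either time, the extremes of each family at 4 h, 9 members of note, members whose probe sets opposed each other past 2-fold, and the 2 highest and 2 lowest of each related list. Others named, such as probe sets under the filter, were chosen after their values were seen. Alternatives changed the scaling, floor, filter, choice of probe set or symbols. Computations ran in Python 3.11.15 with pandas 2.3.3, numpy 2.4.6 and scipy 1.17.1, and plots in matplotlib 3.10.9.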

Additional observations from a re-analysis of the deposited data

Results flagged for a closer look

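The log2 ratio of Kdm7a was -1.05 at 2 h and 0.38 at 4 h, so the arrays moved in opposite directions from the shared 0 h array, and this difference was not tested. The 2 h signal of Kdm7a was 132, near the floor, and with a floor of 200 the 2 h ratio was -0.45. Other Kdm7a probe sets, which did not pass, stood at -0.19 and 0.59 at 2 h, so the 2 h low rests on 1 probe set. The log2 ratio of Prdm11 was 0.080 at 2 h and -1.09 at 4 h, also in opposite directions and not tested. With spike-in scaling the 2 h value of Prdm11 was -0.14, so that its direction at 2 h is not settled.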

How the results depend on the processing

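With 1 array per time point, values rest on scaling, and the number of arrays and signal over background limit precision. With equal medians, 4 (2 h) and 9 (4 h) members passed 2-fold on the lower side, against 3.81% and 9% of all genes, with medians of -0.22 and -0.38. With quantile normalization 6 and 9 were lower (4.12% and 10.2% of all genes) and 1 (Kmt5b) was higher at 4 h, with medians of -0.25 and -0.46. With spike-in scaling 25 were lower at 4 h (22.7%), 0 were higher at 2 h, and medians were -0.59 and -1.01. As deposited, 20 members passed, with 2 and 3 lower (2.08% and 8.34% of all genes) and 0 higher at 2 h. An offset of 50 gave 6 lower (4.22%) and 0 higher at 2 h. Without the filter 2 were higher at 2 h and the 4 h median was -0.51. A filter of 400 left 31 members, with 3 and 7 lower (3.47% and 11.3%) and 0 higher at 2 h. The mean over probe sets gave 0 higher at 2 h and 17 lower at 4 h (14.3%). Requiring only a 0 h signal of at least 200, chosen after seeing the data, gave 13 and 17 of 51 lower (11.1% and 20.2% of all genes) and 0 higher at 2 h. Of 992 values of the 39 named genes under alternatives, 15 moved beyond the pooled probe set SD and no ratio that was past 2-fold in the main setting changed sign. This tally does not measure robustness, because several alternatives could hardly move a value that far. Equal medians and spike-in scaling shifted the median of all genes by 0.15 and -0.22 at 2 h, against an SD of 0.40. At 4 h the shifts were 0.30 and -0.32, against an SD of 0.48. Such shifts cannot reverse a ratio past 2-fold either. Setd5 at 4 h, 0.53 in the main setting, was -1.03 as a mean over probe sets. No paired analysis was possible because each time point has 1 array.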
